A study of Mus musculus with 8 samples.

Results

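Gab1, Sfmbt2, Slc38a4, Jade1 and Smoc1 are 5 autosomal mouse genes known for non-canonical imprinting, and they were picked by symbol from the 26263 genes of the count tables. In most imprinted domains a DNA methylation mark inherited from egg or sperm sets which parental copy is used. In non-canonical imprinting the oocyte instead marks the maternal copy with H3K27me3, the repressive histone modification written by Polycomb repressive complex 2, so that the paternal copy is the one transcribed in the early embryo. That bias is known to be lost in the embryo proper after implantation and kept in extraembryonic lineages, where Sfmbt2, Gab1 and Slc38a4 are genes of trophoblast and placenta.

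The 8 libraries are RNA-seq of polyadenylated RNA from mouse embryonic stem cells (ESCs) and from neural precursor cells (NPCs) at day 12 of in vitro corticogenesis, a protocol that drives ESCs towards cortical precursors. Both stages came from 2 reciprocal hybrid crosses, B/J (C57BL/6 mother, JF1 father, line BJE2) and J/B (JF1 mother, C57BL/6 father, line JBE6). Each of the 4 groups holds 2 replicates. ESCs were grown with LIF, BMP4 and a GSK3-β inhibitor. The corticogenesis medium held B27 without vitamin A, and dorsomorphin homolog 1 to promote neurogenesis. Stage and medium therefore cannot be told apart. Each cross is represented by 1 male line, so cross and line cannot be told apart. The counts sum both parental alleles, so the values below are total expression and say nothing of parental origin. The labels do not say whether replicates were separate cultures, so p-values measure the spread between these libraries only.

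Depth ran from 22537138 to 32706015 reads on genes per library, so that 1 read was worth 0.0306 to 0.0444 CPM, the reads of a gene per 1000000 reads on genes. The stages matched their labels in part. All 8 pluripotency markers examined fell from ESC to NPC, Pou5f1 from a mean of 1638 to 31.1 CPM. Of 10 neural precursor markers 8 rose and Sox2 fell, against 37.5% of all tested genes rising and 31.9% falling. Pax6 did not pass the edgeR test described below (log2 fold change 1.77, adjusted p = 0.0606), but it did on library totals (2.25, adjusted p = 0.0293). Summed over 10 neural precursor markers, the level was 597 to 932 CPM in ESCs and 633 to 1715 CPM in NPCs, the lowest NPC value being that of B/J replicate 1. Sox2 and Vim made up most of these sums, at 378 and 215 CPM in ESC B/J replicate 1 and 46.6 and 436 CPM in NPC B/J replicate 1. Of the other markers, only Pax6 was lower in that NPC library than in that ESC library, at 7.95 against 13.9 CPM. Nes was at 75.9 against 25.3 CPM. Markers of other cell types were present in the NPC cultures. Summed over 15 trophoblast markers, the level went from 78 to 198 CPM in ESCs to 1575 to 4029 CPM in NPCs, and 13 of the 15 rose. Tpbpa, Prl3d1, Prl2c2, Pappa2 and Ctsq, which define placental trophoblast, had 0 reads in every ESC library and reads in every NPC library. The summed level of 10 fibroblast and mesenchyme markers was 10.7 to 72.2 CPM in ESCs, highest in J/B replicate 1, and 956 to 2312 CPM in NPCs. Of 11 extraembryonic endoderm markers, 10 were tested and 7 rose, with sums of 75.4 to 107 CPM and 163 to 522 CPM, although Afp and Ttr, at 0 in ESCs, stayed at or under 12.5 CPM. Much of these sums was Lama1, at 64.2 to 87.6 CPM in ESCs and 77.2 to 363 CPM in NPCs. The part of these cells in the results below was not tested beyond the values given beside them. In such bulk samples, fewer cells of a type and less RNA per cell cannot be told apart.

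The genes lie on 5 chromosomes, with coordinates here in GRCm39 (mm39), the build of the counts, and GENCODE annotation. Gab1 spans chr8:81491061-81607279 on the minus strand and Sfmbt2 spans chr2:10375306-10600064 on the plus strand. Slc38a4 spans chr15:96892693-96958593 on the minus strand. Jade1 spans chr3:41510132-41571309 and Smoc1 spans chr12:81073554-81233188, both on the plus strand. Their start regions differ in CG content, the sequence that DNA methylation acts on. The 30 bases just upstream of each gene's canonical transcript start are given so that this can be read directly, 5′ to 3′ on the gene's strand, with CG dinucleotides in capitals.

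Gab1 (chr8:81607280-81607309): tggggtggCGctgCGttccCGgagacCGcc
Sfmbt2 (chr2:10377118-10377147): aaggagtctaccaCGaagagcaggctaatt
Slc38a4 (chr15:96953850-96953879): ggagatCGagatgctgccccctatcacagg
Jade1 (chr3:41517762-41517791): tctcctttggctggggattaaagtgctccc
Smoc1 (chr12:81073549-81073578): gggtttataaCGggaattcccatggccCGa

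Gab1 held 4 CG in these 30 bases, Smoc1 held 2, Sfmbt2 and Slc38a4 held 1 each and Jade1 held 0. Over the 250 bases upstream of the start, the counts were 16 CG in Gab1, 15 in Sfmbt2, 12 in Smoc1, 7 in Jade1 and 3 in Slc38a4, against a median of 8 over the same window of 21770 genes. Slc38a4 thus had a CG-poor start, with only 24.2% of promoters holding fewer CG, while 74.8% held fewer than Gab1. The GC-box letters GGGCGG, searched on both strands and overlapping a CG, occurred 5 times in Sfmbt2, 2 times in Smoc1, 1 time each in Slc38a4 and Jade1 and 0 times in Gab1, and 36.3% of promoters held them. TATAAA, searched likewise, was found in Smoc1 alone of the 5 and in 11.9% of promoters. The canonical start lies 1.84 kb inside the annotated span of Sfmbt2, 4.74 kb inside that of Slc38a4 and 7.66 kb inside that of Jade1, so other transcripts of these genes start further upstream, and the gene counts do not separate them.

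The first comparison asked how the total level of each gene differed between the stages. All 5 genes passed the filter on low counts, with 738 or more reads in every library. Over both crosses, Sfmbt2 and Smoc1 rose from ESC to NPC, Gab1 and Jade1 fell, and Slc38a4 did not pass the test. Of 16399 genes tested, 37.5% rose and 31.9% fell at an adjusted p below 0.05, so 2 of 5 members rising and 2 of 5 falling is close to the background. Levels are given as CPM on library totals, and log2 fold changes with TMM normalisation, which corrects for a few abundant genes taking reads from the rest. The choice matters here because TMM factors were 0.820 to 0.885 in ESCs and 1.14 to 1.21 in NPCs. Taken over all genes, the median log2 fold change was 0.17 with TMM, 0.19 with RLE size factors, 0.65 on library totals and 0.80 when scaled to Gapdh, Gusb and Tbp. Rises made up 54.0%, 54.6%, 70.1% and 75.0% of the calls in that order.

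**Figure D1:**
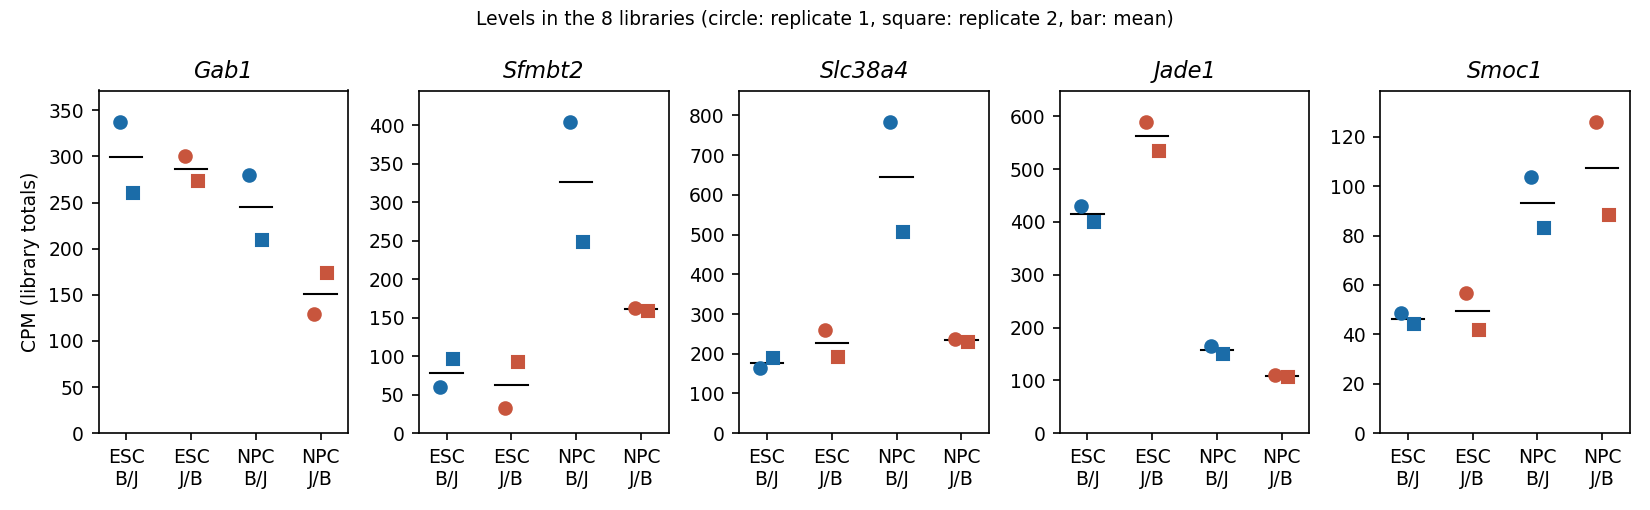
Level of each gene in the 8 libraries, in CPM on library totals, from 0 on a linear axis. Circles are replicate 1, squares replicate 2 and bars the mean of each group. Jade1 in NPCs sits at 107 to 165 CPM, under every ESC library, whereas Slc38a4 is far above its ESC levels only in the B/J NPCs.

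Jade1 showed the largest stage difference of the 5 genes. It encodes a scaffold that directs the HBO1 histone acetyltransferase to its targets. In ESCs its level was 430 and 400 CPM in B/J and 590 and 534 CPM in J/B. In NPCs it was 165 and 150 CPM in B/J and 110 and 107 CPM in J/B. Every NPC library was below every ESC library, as for 20.5% of all tested genes on library totals and 31.2% with TMM. The cross with the higher Jade1 level in ESCs had the lower level in NPCs. The log2 fold change of Jade1 between the stages was -2.37 (SE 0.128, edgeR quasi-likelihood test, Benjamini-Hochberg adjusted p = 1.38e-05). It passed in 18 of 18 alternative settings, between -2.42 and -1.73.

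Jade1 shares 1939 exonic bases in the annotation with Sclt1, a centriole gene on the opposite strand, and no source used here gives the strand setting of the counting step. Sclt1 stood at 2.42 to 4.19 CPM in ESCs and 10.7 to 15.7 CPM in NPCs, a log2 fold change of 1.41 (adjusted p = 0.00157). It moved the other way from Jade1 and lay below it in every library. Any effect of the shared bases on the counts of either gene was not tested.

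Gab1 encodes a docking protein that receptor tyrosine kinases phosphorylate to recruit SHP2 and PI3-kinase, and it is needed for placental growth. Its ESC levels were 338 and 260 CPM in B/J and 300 and 273 CPM in J/B. Its NPC levels were 280 and 210 CPM in B/J and 129 and 173 CPM in J/B. On library totals the stages overlapped through B/J NPC replicate 1, while after TMM normalisation every ESC library was above every NPC library. That separation held for 31.2% of all tested genes with TMM and 20.5% on library totals. The log2 fold change was -1.09 (SE 0.178, adjusted p = 0.00103). Scaled to the 3 reference genes it was -0.45 and no longer passed (adjusted p = 0.0543), the only one of 18 alternatives where the call was lost.

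Sfmbt2 encodes a Polycomb-group protein with malignant brain tumour (MBT) repeats and is needed for trophoblast maintenance. It stood at 59.8 and 95.8 CPM in B/J ESCs and 32.7 and 92.0 CPM in J/B ESCs. In NPCs it reached 405 and 248 CPM in B/J and 163 and 159 CPM in J/B. All NPC libraries were above all ESC libraries, as for 46.7% of all tested genes on library totals and 35.3% with TMM, and within the J/B ESCs the 2 replicates lay far apart, the lower of them resting on 738 reads (95% exact Poisson interval 30.4 to 35.2 CPM, counting error only). The log2 fold change was 1.26 (SE 0.325, adjusted p = 0.00956), past the threshold in 18 of 18 alternatives with values from 0.99 to 2.03 and adjusted p between 2.92e-04 and 0.0411. The highest value came with a replicate block within each stage (adjusted p = 6.75e-04).

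Slc38a4 encodes a neutral amino acid transporter of the system A type, prominent in placenta and liver. Its levels in ESCs were 163 and 190 CPM in B/J and 260 and 192 CPM in J/B. In NPCs they were 784 and 507 CPM in B/J and 238 and 230 CPM in J/B. The B/J NPCs stood above all other libraries, whereas the J/B NPCs lay within the range of the ESCs. Pooled over crosses, the log2 fold change was 0.48 (SE 0.189, adjusted p = 0.0501), which did not pass. In 11 of 18 alternatives it did pass, with adjusted p between 6.04e-04 and 0.177 over all of them, so the pooled call rests on the setting.

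Smoc1 encodes a secreted calcium-binding matrix protein of the SPARC family that inhibits BMP signalling. It was measured at 48.4 and 44.2 CPM in B/J ESCs and 56.8 and 41.8 CPM in J/B ESCs. The NPC values were 104 and 82.9 CPM in B/J and 126 and 88.2 CPM in J/B, all above every ESC value. This separation was common, held by 46.7% of all tested genes on library totals and 35.3% with TMM. The log2 fold change was 0.58 (SE 0.190, adjusted p = 0.0249). The call was lost when any one of 4 libraries was left out, with adjusted p of 0.0765 without ESC B/J replicate 2, 0.0662 without ESC J/B replicate 2, 0.0850 when B/J replicate 1 of the NPCs was dropped and 0.0960 when their J/B replicate 1 was.

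The study's laboratory scale of expression divides a gene by the geometric mean of 3 reference genes (Gapdh, Gusb, Tbp), and the 5 genes were also set on it. The NPC to ESC ratio was 3.89 for Sfmbt2, 2.31 for Smoc1, 2.15 for Slc38a4 and 0.300 for Jade1, each with a two-sided exact permutation p = 0.0286 over the 4 ESC and 4 NPC libraries, and no smaller p can be had from so few. For Gab1 it was 0.726 (exact permutation p = 0.0571). These p-values are not adjusted for the 5 genes tested. On TMM-normalised CPM, with no reference genes, the NPC to ESC ratio of Slc38a4 was 1.39 (exact permutation p = 0.400). The references themselves were not flat, since with TMM Gapdh had a log2 fold change of -1.43 (adjusted p = 1.42e-04) and Tbp of -0.69 (adjusted p = 0.00408), against 0.23 for Gusb (adjusted p = 0.427). With Rplp0 in place of Gusb, the Gab1 ratio turned to 1.11 (exact permutation p = 0.629) and the others became 5.97 for Sfmbt2, 3.55 for Smoc1, 3.30 for Slc38a4 and 0.461 for Jade1.

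**Figure D2:**
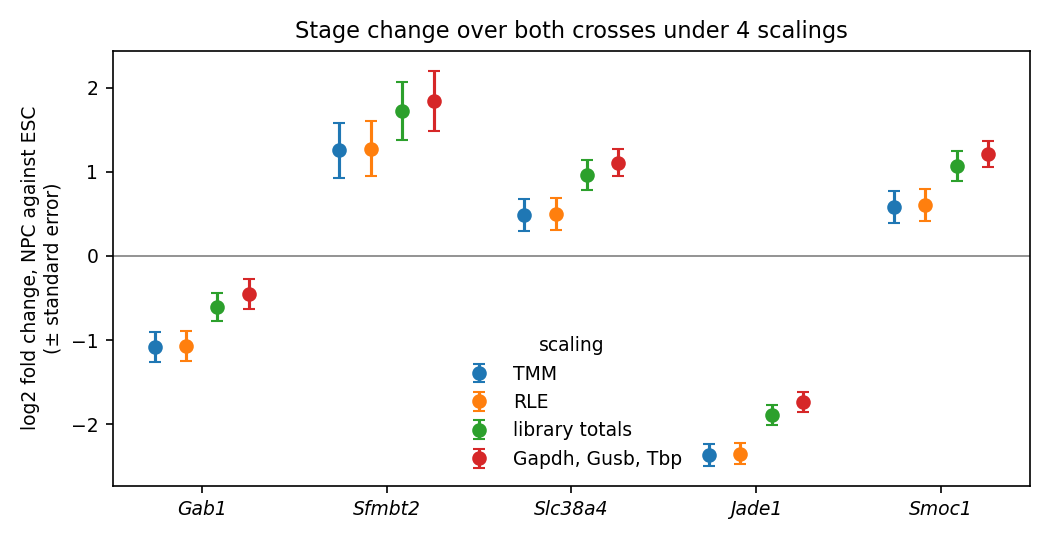
Log2 fold change of NPCs against ESCs over both crosses for each gene, with the standard error, under 4 scalings (TMM, RLE size factors, library totals, and the mean of Gapdh, Gusb and Tbp). Each gene keeps its sign under all 4, and the values rise from TMM to the reference genes, from -1.09 to -0.45 for Gab1 and from 0.48 to 1.11 for Slc38a4.

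Levels can be compared between genes only per length, here as CPM per kilobase of annotated exon. In ESCs the order of means was Jade1 at 56.1, Gab1 at 42.5, Slc38a4 at 32.6, Smoc1 at 9.87 and Sfmbt2 at 7.22 CPM per kb. Within each of the 4 libraries Jade1 was above Gab1, Gab1 above Slc38a4 and Slc38a4 above Smoc1, whereas Smoc1 was above Sfmbt2 in 2 of 4. Over libraries, the ranges of neighbours overlapped except from Slc38a4 (lowest 26.4) to Smoc1 (highest 11.7). In NPCs the order was Slc38a4 at 71.2, Gab1 at 28.7, Sfmbt2 at 25.1, Smoc1 at 20.7 and Jade1 at 15.3 CPM per kb, and the ranges of all neighbours overlapped. Slc38a4 was above Gab1 within each of the 4 libraries, while the later steps held in 3, 2 and 3 of 4. Jade1 thus went from the first place to the last. Among 15859 genes with a length, the 5 members lay above 72.5% to 96.4% of genes in ESCs and above 83.6% to 97.8% in NPCs.

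The second comparison took each cross by itself. In B/J, Sfmbt2 and Slc38a4 rose and Gab1 and Jade1 fell, where 30.1% of genes rose and 25.6% fell. In J/B, Gab1 and Jade1 fell and none of the 5 rose with TMM and no replicate block, where 29.1% of genes rose and 25.3% fell. Sfmbt2 and Smoc1 passed upward in J/B on library totals, where 39.2% of all genes rose, and with the reference genes, where 44.3% did, so 2 of 5 is near the background of those scalings. Jade1 had a log2 fold change of -1.87 in B/J (SE 0.178, adjusted p = 2.65e-04) and -2.86 in J/B (SE 0.184, adjusted p = 1.35e-04). Gab1 had -0.76 in B/J (SE 0.251, adjusted p = 0.0335) and -1.41 in J/B (SE 0.254, adjusted p = 0.00291). Both genes fell in both lines with TMM, but the Gab1 calls depended on the scaling. In B/J, Gab1 did not pass on library totals (-0.29, adjusted p = 0.327), with the reference genes (-0.26, adjusted p = 0.412), without ESC B/J replicate 1 (-0.52, adjusted p = 0.198) or without NPC B/J replicate 2 (-0.54, adjusted p = 0.180), and it passed in the other 15 of 19 alternatives. In J/B it passed in 18 of 19, the exception being the reference genes (-0.64, adjusted p = 0.0633).

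Slc38a4 differed most between the crosses. Its log2 fold change was 1.41 in B/J (SE 0.271, adjusted p = 0.00373), which passed in 19 of 19 alternatives, and -0.44 in J/B (SE 0.267, adjusted p = 0.190), which turned to 0.05 on library totals and 0.32 with the reference genes without passing. Sfmbt2 had 1.61 in B/J (SE 0.464, adjusted p = 0.0200) and 0.90 in J/B (SE 0.457, adjusted p = 0.129). The B/J call was lost without ESC B/J replicate 1 (1.34, adjusted p = 0.125) or NPC B/J replicate 1 (1.19, adjusted p = 0.104). In J/B, 4 of 19 alternatives passed for Sfmbt2, among them library totals (1.37, adjusted p = 0.0446) and the reference genes (1.60, adjusted p = 0.0291), and dropping 1 ESC library of that cross moved the value to 0.36 (replicate 1) or 1.78 (replicate 2, adjusted p = 0.0119). Smoc1 had similar values in both, 0.54 in B/J (SE 0.268, adjusted p = 0.120) and 0.63 in J/B (SE 0.269, adjusted p = 0.0807), and passed in neither with TMM and no block. It passed in 4 of 19 alternatives in each cross. Leaving out 1 library moved the Smoc1 value to between 0.35 and 0.72 in B/J and between 0.32 and 0.92 in J/B. With a replicate block across stages it stood at 0.53 in B/J (adjusted p = 0.0265) and 0.63 in J/B (adjusted p = 0.0147), and with one within each stage at 0.58 (adjusted p = 0.0290) and 0.67 (adjusted p = 0.0158). On library totals Smoc1 passed in both, at 1.01 in B/J (adjusted p = 0.0117) and 1.12 in J/B (adjusted p = 0.00808), and with the reference genes it stood at 1.04 (adjusted p = 0.00583) and 1.38 (adjusted p = 0.00196). In B/J, 39.6% of all genes rose on library totals and 38.7% with the reference genes.

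**Figure D3:**
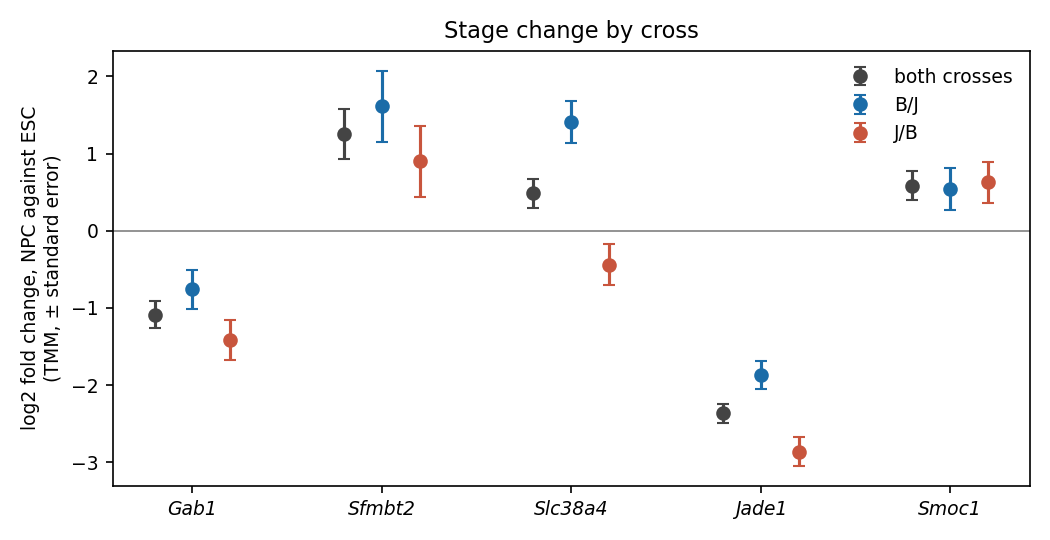
Log2 fold change of NPCs against ESCs with TMM normalisation and its standard error, for both crosses together, for B/J and for J/B. Slc38a4 stands at 1.41 in B/J and -0.44 in J/B, while the 2 crosses lie close together for Smoc1 at 0.54 and 0.63.

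Whether the stage change itself differed between the crosses was tested with the interaction term. At an adjusted p below 0.05 edgeR called 0% of genes and limma-voom 0 genes, whereas DESeq2 called 11 genes, Slc38a4 among them. The interaction for Slc38a4 was -1.85 on the log2 scale (SE 0.380, unadjusted p = 0.00136, adjusted p = 1). Only the DESeq2 test brought it under the threshold (adjusted p = 0.0378, range over 18 alternatives 0.0378 to 1), although the estimate stayed between -2.17 and -1.49. For Jade1 the interaction was -0.99 (SE 0.244, unadjusted p = 0.00383, adjusted p = 1). These 2 of 5 genes had the lower change in J/B at an unadjusted p below 0.05, against 2.7% of all genes, and 573 genes reached that unadjusted level in either direction. Gab1 stood at -0.66 (SE 0.353), Sfmbt2 at -0.71 (SE 0.642) and Smoc1 at 0.09 (SE 0.378), with unadjusted p of 0.101, 0.302 and 0.824.

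The third comparison set J/B against B/J within a stage. In ESCs edgeR called 0% of genes at an adjusted p below 0.05, with 346 genes at an unadjusted p below 0.05, and DESeq2 called 10 genes with none of the 5 among them. Jade1 was higher in J/B by 0.40 on the log2 scale (SE 0.172, unadjusted p = 0.0484, adjusted p = 1), the only member higher at that unadjusted level, against 1.66% of genes. The other members stood at -0.37 for Sfmbt2, -0.10 for Gab1, 0.06 for Smoc1 and 0.33 for Slc38a4, with unadjusted p of 0.254 or more. The Sfmbt2 value rests on the low J/B replicate 1, since it was 0.17 without that library.

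In NPCs both J/B libraries were below both B/J libraries for Gab1, Sfmbt2, Slc38a4 and Jade1, on library totals and with TMM alike, while Smoc1 overlapped. Of all tested genes, 18.6% on library totals and 21.1% with TMM had the same separation in this direction. Across all genes edgeR called 1 gene, 0.0061% of those tested, the X-linked non-coding RNA Firre at -3.32 (adjusted p = 0.0431). None of the 5 genes passed the adjusted test. Slc38a4 had a log2 difference of -1.52 (SE 0.272, unadjusted p = 5.82e-04, adjusted p = 0.684), Sfmbt2 of -1.08 (SE 0.458, unadjusted p = 0.0473, adjusted p = 0.770), Gab1 of -0.75 (SE 0.251, unadjusted p = 0.0175, adjusted p = 0.755) and Jade1 of -0.59 (SE 0.173, unadjusted p = 0.00968, adjusted p = 0.734). Thus 4 of 5 genes were lower in J/B NPCs at an unadjusted p below 0.05, against 4.27% of all genes. On library totals Sfmbt2 left that set, and with the reference genes Slc38a4 alone remained in it. Leaving out 1 library moved the difference to between -1.43 and -0.67 for Sfmbt2 and between -0.99 and -0.52 for Gab1. DESeq2 called 70 genes, with Slc38a4 the sole member among them (adjusted p = 4.64e-04, range over 19 alternatives 4.64e-04 to 1). Smoc1 stood at 0.15 (SE 0.267, unadjusted p = 0.597).

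Among the NPC libraries, the one highest in Sfmbt2 and Slc38a4 was also the highest in summed trophoblast markers. In the order B/J replicates 1 and 2, then J/B replicates 1 and 2, the summed trophoblast level in NPCs was 4029, 2232, 2206 and 1575 CPM, and B/J replicate 1 was the highest for Gab1 and Jade1 as well. Sfmbt2 and Slc38a4 had the full order of these sums, Slc38a4 at 784, 507, 238 and 230 CPM. So did Jade1, which fell between the stages, at 164.8, 149.6, 109.7 and 107.3 CPM. The J/B values of each of these genes lay close together, and Gab1 and Smoc1 did not have the full order. The keratins Krt8 and Krt18, shared by other simple epithelia, made up most of these sums, and without them the other 13 markers summed to 1487, 861, 778 and 614 CPM in the same order, a sum chosen after seeing the data. B/J replicate 2 and J/B replicate 1 had nearly equal trophoblast sums but 507 and 238 CPM of Slc38a4. Of the 15 trophoblast markers, only Cdx2, Tfap2c, Hand1, Ascl2, Pappa2 and Krt18 had the full order of the sums, so most did not. Among the others, Tpbpa was at 450, 185, 281 and 171 CPM and Prl3d1 at 0.454, 0.790, 8.26 and 3.47 CPM. Prl2c2 was at 7.47, 5.87, 16.2 and 10.8 CPM and Eomes at 9.67, 13.2, 5.72 and 42.7 CPM. Tfap2c, a transcription factor of trophoblast that ESCs also express, is described here because it was one of the 3 genes of most similar profile to Sfmbt2 over these libraries, so the likeness is how it was chosen. It was at 386, 224, 142 and 123 CPM in NPCs where Sfmbt2 was at 405, 248, 163 and 159 CPM. In ESCs Tfap2c was 73.1, 95.5, 32.8 and 112 CPM and Sfmbt2 was 59.8, 95.8, 32.7 and 92.0 CPM, with the lowest value of both genes in J/B replicate 1. That library also held the most fibroblast and mesenchyme marker RNA of the ESCs. Slc38a4 did not share the low value, with its highest ESC level in the same library. The extraembryonic endoderm sum went the other way between the crosses, at 163 and 180 CPM in B/J NPCs and 451 and 522 CPM in J/B NPCs. Lama1 alone was at 77.2 and 100 CPM in B/J NPCs and 318 and 363 CPM in J/B NPCs. The neural precursor sum, mostly Vim and Sox2, also went the other way, at 633 and 1281 CPM against 1715 and 1674 CPM. The sum of 8 neuron markers, at 325 and 1194 CPM against 931 and 1874 CPM, overlapped. How far these cells account for the levels of the 5 genes was not tested.

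**Figure D4:**
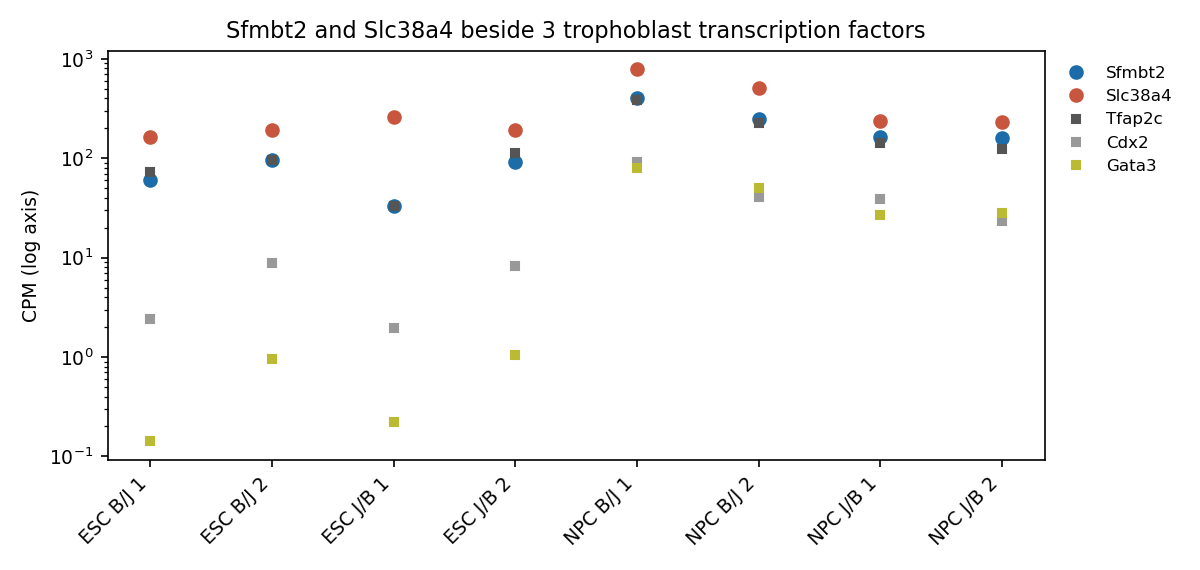
Sfmbt2 and Slc38a4 (circles) beside the trophoblast transcription factors Tfap2c, Cdx2 and Gata3 (squares) in each of the 8 libraries, in CPM on library totals and on a log axis. Sfmbt2 and Tfap2c are each at their lowest in ESC J/B replicate 1 and at their highest in NPC B/J replicate 1, and heights are not to be compared between genes since CPM is not corrected for length.

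The genes whose profile over the 8 libraries came nearest to each member were found from centred log2 values, as the root mean square difference over 14080 genes with a mean of at least 1 CPM. Nearest to Sfmbt2 were Pkp2 (0.175), Rin1 (0.186) and Tfap2c (0.212). Nearest to Slc38a4 were Aspg (0.205), Dock9 (0.206) and 1700017B05Rik (0.225). For Jade1 they were Gm51425 (0.145), Slc4a11 (0.160) and Rest (0.175), for Gab1 Kank3 (0.135), Zfp874b (0.163) and Atmin (0.174), and for Smoc1 Tm2d2 (0.111), Cand2 (0.120) and Txndc15 (0.125). Between the members the differences were several times larger, from 0.604 for Slc38a4 and Smoc1 to 1.94 for Sfmbt2 and Jade1, so no member was among the nearest genes of another. These distances are a description over 8 libraries that share 4 groups.

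Each gene was next set beside its closest relatives and the proteins it works with. Gab2, the second docking protein of the family, went from 0.547 to 0.981 CPM in ESCs to 56.3 to 112 CPM in NPCs, a log2 fold change of 6.24 (adjusted p = 9.20e-06), against the fall of Gab1. Per kb, Gab1 remained above it in NPCs, at 28.7 against 11.9 CPM. Gab3 was near the limit of detection at 0.177 to 0.527 CPM. Of 17 Gab1 partners and relatives tested, 8 rose and 2 fell, with a median log2 fold change of 0.30 against 0.17 over all genes. Of all genes, 37.5% rose and 31.9% fell. The largest rise after Gab2 was in Egfr, a receptor that signals through Gab1, at 4.81 (adjusted p = 5.85e-05). Crkl, an adaptor that binds phosphorylated Gab1, was at -0.73 (adjusted p = 7.38e-04), and the adaptor Shc1 at -0.60 (adjusted p = 0.0129). The adaptor Grb2 (0.29, adjusted p = 0.155) and Ptpn11, which encodes SHP2 (0.22, adjusted p = 0.109), did not pass. On library totals and with the reference genes 12 rose and 0 of the 17 fell, since Crkl and Shc1 no longer passed and Shc1 reached 0.04 with the reference genes. Of all 16399 genes, 8016 rose on library totals and 8469 with the reference genes. Grb2 and Ptpn11 passed upward there, at 0.77 (adjusted p = 0.00512) and 0.70 (adjusted p = 0.00101) on library totals and at 0.90 (adjusted p = 0.00197) and 0.85 (adjusted p = 6.96e-04) with the reference genes.

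Sfmbt1, the other Sfmbt gene, did not pass at -0.25 (adjusted p = 0.269), with 23.0 to 31.2 CPM in ESCs and 18.0 to 43.4 CPM in NPCs. Of 9 MBT-repeat genes with Yy1, the DNA-binding partner of Sfmbt proteins, 8 were tested. L3mbtl3 rose by 0.69 (adjusted p = 0.0254), whereas L3mbtl2, a subunit of a variant Polycomb complex, was at -2.46 (adjusted p = 4.19e-05) and Mbtd1 at -0.69 (adjusted p = 0.00215). Yy1 stood at -0.04 (adjusted p = 0.810), but at 0.43 on library totals (adjusted p = 0.0304) and 0.58 with the reference genes (adjusted p = 0.0165). The list's median was -0.15 with TMM but 0.33 on library totals and 0.48 with the reference genes, under both of which Mbtd1 did not pass and Sfmbt1 turned positive without passing.

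Among the SLC38 transporters, 9 of 10 were tested, 4 rose and 1 fell, against 37.5% and 31.9% of all genes. Their median was 0.24 with TMM, 0.72 on library totals and 0.88 with the reference genes. Slc38a1 and Slc38a2, the other system A transporters, moved in opposite directions, at 0.42 (adjusted p = 0.0327) and -0.88 (adjusted p = 0.00954). Slc38a6 rose by 1.10 (adjusted p = 0.00679) and the lysosomal amino acid sensor Slc38a9 by 0.93 (adjusted p = 0.0119). Per kb, Slc38a2 was at 40.2 CPM and Slc38a4 at 32.6 CPM in ESCs, with ranges that overlapped, and in NPCs Slc38a4 was at 71.2 CPM and Slc38a2 at 30.3 CPM, its highest library at 32.6 CPM lying below the lowest of Slc38a4 at 37.3 CPM. The fall of Slc38a2 did not pass on library totals (-0.41, adjusted p = 0.167) or with the reference genes (-0.27, adjusted p = 0.387), under which 0 transporters fell.

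The Jade relatives split. Jade2 fell with Jade1, from 20.7 to 33.2 CPM in ESCs to 9.45 to 17.5 CPM in NPCs (log2 fold change -1.50, adjusted p = 3.94e-04). Jade3 rose from 34.6 to 75.5 CPM to 117 to 268 CPM (1.12, adjusted p = 0.00303). Per kb, Jade1 was above Jade3 in ESCs, at 56.1 against 9.05 CPM, and below it in NPCs, at 15.3 against 28.2 CPM, with ranges that did not overlap at either stage. Among the 9 genes listed for the JADE family and its HBO1 complex, 2 rose and 4 fell, against 37.5% and 31.9% of all genes. Their median of -0.25 turned to 0.22 on library totals and 0.36 with the reference genes. Kat7, which encodes the HBO1 acetyltransferase, was at -1.10 (adjusted p = 6.48e-04). The histone-reading subunits Ing4 and Ing5 moved apart, at 1.35 (adjusted p = 1.22e-04) and -1.70 (adjusted p = 6.93e-05).

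Smoc2, the only other Smoc gene, was nearly absent in ESCs, with 14 reads over 4 libraries, and stood at 16.5 to 23.9 CPM in NPCs (log2 fold change 6.81, adjusted p = 1.40e-05). Per kb it remained below Smoc1 in NPCs, at 2.09 against 20.7 CPM. All but 1 of the 7 SPARC family genes listed rose, with a median of 4.95, against 37.5% of all genes. The exception was Fstl1 at 0.52 (adjusted p = 0.239), which passed on library totals at 1.01 (adjusted p = 0.0349). Sparc itself, a matrix protein of mesenchyme and endoderm, rose from a mean of 154 to 872 CPM (2.03, adjusted p = 1.34e-04). Sparcl1 had 6 reads over the ESC libraries and a mean of 91.5 CPM in NPCs. The fibroblast and mesenchyme sums given above rose in the same libraries, and their part in this was not tested.

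**Figure D5:**
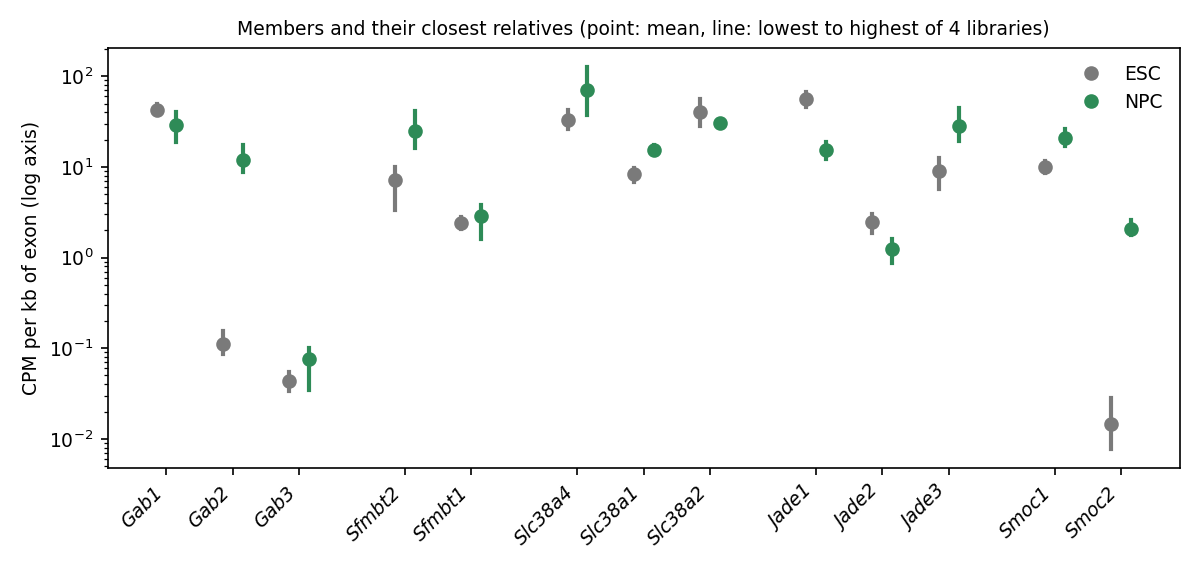
Mean level in CPM per kilobase of exon (log axis) of each gene and its closest relatives in ESCs (grey) and NPCs (green), with lines from the lowest to the highest of 4 libraries. Jade1 and Jade3 exchange places between the stages, and Smoc2 and Gab2 rise from near 0 while remaining below Smoc1 and Gab1.

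Genes listed for the machinery of H3K27me3 and DNA methylation more often fell than rose, while the H3K9me2 genes Ehmt1 and Ehmt2 did not pass with TMM. Of 18 genes tested for the 3 marks together, 11 fell and 2 rose, with a median log2 fold change of -0.92, against 31.9% of all genes falling and 37.5% rising. The 18 include the H3K27 demethylases Kdm6a and Kdm6b, which remove a silencing mark. Kdm6a was one of the falls (-0.72, adjusted p = 9.25e-04) and Kdm6b one of the rises. On library totals 9 fell and 3 rose, with a median of -0.44, and with the reference genes 9 fell and 4 rose, with a median of -0.29. The core subunits of Polycomb repressive complex 2 were among them, with Eed at -2.42 (adjusted p = 1.54e-05), Suz12 at -1.92 (adjusted p = 4.27e-05) and the methyltransferase Ezh2 at -0.78 (adjusted p = 0.00556), which did not pass on library totals (-0.31, adjusted p = 0.192). Its homologue Ezh1 rose by 0.54 (adjusted p = 0.0167) and the H3K27 demethylase Kdm6b by 1.12 (adjusted p = 2.66e-04). The largest falls were in Dnmt3l, a cofactor of de novo DNA methylation, at -5.36 (adjusted p = 8.90e-05) and Dnmt3b, a de novo DNA methyltransferase, at -3.28 (adjusted p = 0.00139). Smchd1, Ehmt1 and Ehmt2 did not pass, at -0.05, -0.11 and -0.21 (adjusted p = 0.812, 0.618 and 0.112), and turned positive on library totals. With the reference genes Ehmt2 passed upward at 0.42 (adjusted p = 0.0189).

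For comparison, 11 placental genes imprinted through DNA-methylated control regions were counted, of which 9 were tested. In this list 6 rose, 1 fell and the median was 1.28, against 0.17 over all genes, of which 37.5% rose and 31.9% fell. By cross, 6 rose and 0 fell in B/J with a median of 2.12, where 30.1% of all genes rose. In J/B, 3 rose and 1 fell with a median of 0.44, where 29.1% of all genes rose, so the J/B rises were near the background. The difference between the crosses was not tested. Ascl2, one of the genes that rose (2.71), is also one of the trophoblast markers, whose sums were higher in NPCs too. The part of trophoblast cells in this list was not tested. Cdkn1c, a cell cycle inhibitor, rose from a mean of 21.6 to 786 CPM (4.68, adjusted p = 1.80e-04), and Slc22a3, an organic cation transporter, had 6 reads over the ESC libraries against 10.6 CPM in NPCs. Phlda2, which limits placental growth, was at -0.83 (adjusted p = 0.0238), a fall that did not pass on library totals or with the reference genes. With a replicate block across stages, 3 genes of this list fell.

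The nearest tested protein-coding gene on each side moved with the member at some loci and against it at others. Around Gab1, Smarca5 at 24.9 kb and Usp38 at 100.1 kb fell with it, by 0.89 (adjusted p = 0.00188) and 0.85 (adjusted p = 5.59e-04) on the log2 scale, of which Smarca5 did not pass on library totals (-0.41, adjusted p = 0.0693) and neither passed with the reference genes (-0.26, adjusted p = 0.273, and -0.23, adjusted p = 0.143). Around Sfmbt2, Itih5 at 114 kb rose from 0.447 to 51.0 CPM (6.40, adjusted p = 2.29e-05) and Prkcq at 577 kb rose as well (2.30, adjusted p = 0.0280) from a level that remained under 1 CPM in the mean of either stage, so that both moved with Sfmbt2. Around Slc38a4, Slc38a2 at 295 kb and Pced1b at 175 kb fell, the latter at -1.85 (adjusted p = 1.12e-04). Near Smoc1, Slc8a3 at 11.5 kb rose to a mean of 6.72 CPM (4.46, adjusted p = 1.49e-04) and Srsf5 at 75.9 kb stood at -0.52 (adjusted p = 0.00477), or 0.12 with the reference genes (adjusted p = 0.502). On the side of Jade1 away from Sclt1, Pgrmc2 at 473 kb did not pass at 0.04 (adjusted p = 0.864). With the reference genes it passed upward at 0.65 (adjusted p = 0.0434).

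Sfmbt2 also carries a large cluster of microRNA genes in its introns, with 119 annotated inside its span, all on its strand. Of these, 71 had a row in the count tables, and none had more than 4 reads in a library. Libraries of polyadenylated RNA do not measure mature microRNAs, so their level was not analysed here.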

How the data were processed

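RNA was measured in 8 libraries (2 stages, 2 crosses, 2 replicates). Per the labels and the study's methods, the authors aligned paired reads with TopHat2, set for first-strand libraries, to a SNP-masked mm39, kept proper pairs with mapping quality of 20 or more, and deposited raw counts per gene made with HTSeq. No source used here gives tool versions or the strand setting of HTSeq, and libraries used either of 2 kits and either of 2 sequencers, not said which. The 5 closing entries that name no gene were left out of totals (reads on no gene 5.76% to 10.9%).

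Counts were fitted with edgeR 4.0.16 (R 4.3.3): TMM, filterByExpr with a minimum count of 10, 4 group means, robust quasi-likelihood tests, and Benjamini-Hochberg adjustment over 16399 genes at 0.05. The code was tested on simulated data. Alternatives were DESeq2 1.42.0, limma-voom (limma 3.58.1), 3 other scalings, 2 other filters, no robust estimation, a replicate term and leaving out each library. The members, gene lists and tests were chosen with earlier results of these data known. Named genes are the members, their closest relatives, up to 2 largest rises and falls per list, nearest neighbours, the 3 genes of most similar profile, the reference genes and the stage markers, with markers from the fixed cell type lists; Fstl1, Grb2, Ptpn11, Yy1, Kat7, Sparc, Eed, Suz12, Ezh2, the other silencing genes and Firre were added after their values were seen. Exon lengths and coordinates come from GENCODE on GRCm39, sequences from the same genome, and CG and motif counts from the same starts.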

Additional observations from a re-analysis of the deposited data

How the results depend on the processing

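The 4 TMM calls on the stage change over both crosses kept their direction in every alternative run. Gab1 fell to -0.45 and under the threshold with the reference genes, Smoc1 lost its call in 4 of 8 refits that leave out a library (0.43 to 0.73), and Slc38a4 passed with RLE size factors (0.50), library totals (0.96), the reference genes (1.11), DESeq2 (0.50), limma-voom (0.48), no filter (0.51), a mean of at least 1 CPM (0.51) and no robust estimation (0.48), with 0.29 to 0.63 over the refits without 1 library. Slc38a4 in J/B reversed to 0.051 on library totals and 0.32 with the reference genes. Genes called for the interaction went from 0 to 11 with DESeq2, for the cross in ESCs from 0 to 10 with DESeq2 and 2 with no filter, and for the cross in NPCs from 1 to 70 with DESeq2, 5 with no filter, and 0 on library totals, with the reference genes or with only the 4 NPC libraries.

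Leaving out 1 library moved the count of genes called in J/B to between 5700 and 8475 and the NPC cross count to between 0 and 1, the former being lowest without NPC J/B replicate 2. It turned 6 member values, all short of the threshold: the interaction of Sfmbt2 to 0.17 at most (from -1.24) and of Smoc1 between -0.23 and 0.38, and the ESC cross difference of Gab1 between -0.31 and 0.13, of Sfmbt2 between -1.25 and 0.17 and of Smoc1 between -0.23 and 0.28, with the NPC cross difference of Smoc1 between -0.17 and 0.38. The cause was not tested. For the ratio to the reference genes, Rplp0 in place of Gusb gave 1.11 for Gab1. Plain TMM-normalised CPM, with no reference genes, gave NPC to ESC ratios of 0.469 for Gab1 (exact permutation p = 0.0286), 1.39 for Slc38a4 (exact permutation p = 0.400), 2.51 for Sfmbt2, 1.49 for Smoc1 and 0.194 for Jade1.

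Replicate numbers are shared by the groups, but differences between replicates correlated across genes at 0.521 between the crosses in ESCs and 0.585 in NPCs, and at only 0.05 to 0.09 across stages, so replicate differences were shared between the crosses of a stage but not across stages, and no source says that a number marks a shared culture or day. With a replicate block across stages, Slc38a4 passed (0.47, adjusted p = 0.0338), the other pooled stage calls on the members stood, Smoc1 passed in each cross with either block, and the NPC cross count was 0. With a replicate block within each stage, an alternative chosen after seeing the data, Slc38a4 did not pass (0.57, adjusted p = 0.0539), Sfmbt2 moved from 1.26 to 2.03 and the NPC cross count was 4. Permuting within replicate numbers, the ratios of 3.89 for Sfmbt2, 2.15 for Slc38a4, 0.300 for Jade1 and 2.31 for Smoc1 had an exact permutation p of 0.0556, the smallest that pairing allows. Depth did not limit the members, each at 738 or more reads in a library.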
